A study of Mus musculus with 12 samples.

Results

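Transcripts of 10 enzymes and partners that write, copy, remove or depend on repressive chromatin marks were followed: Dnmt1, Dnmt3a, Dnmt3b, Uhrf1, Tet1, Tet2, Tet3, Ezh1, Ezh2 and Suz12. They were taken by gene name from a table of 24674 genes, and 10 of 10 were found. RNA abundance had been measured in organoids, small epithelial cultures grown in a gel, that came from basal cells of the mouse prostate. The animals behind every culture were wild type C57BL/6 mice, and the 4 groups of 3 samples were Vehicle, UK5099, Butyrate and UK5099 + Butyrate (hereafter the combination). Pyruvate entry into mitochondria is blocked by UK5099, and histone deacetylases are inhibited by butyrate. The labels used here give no dose or duration and do not say whether replicates were separate cultures, so p-values measure the spread between these samples.

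DNA methylation is placed on cytosines next to guanines by the de novo enzymes Dnmt3a and Dnmt3b. It is copied onto new DNA strands after replication by Dnmt1, which Uhrf1 brings to half-methylated sites. The Tet enzymes oxidise methylated cytosine, a step on the way to its removal, and use 2-oxoglutarate, a metabolite of the TCA cycle. Polycomb repressive complex 2 (PRC2) methylates histone H3 at lysine 27: Ezh2 or Ezh1 is its catalytic subunit and Suz12 its scaffold, with Ezh2 typical of dividing cells and Ezh1 of resting ones.

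UK5099 and butyrate each lowered the transcripts of the maintenance pair Dnmt1 and Uhrf1, of the de novo enzyme Dnmt3a and of Ezh2, and the combination lowered them furthest. Uhrf1 kept 50.5% and Dnmt1 54.4% of the vehicle mean TPM (transcripts per 1000000) in the combination. The median log2(TPM + 1) difference of all genes averaging 1 TPM or more was -0.12 under UK5099, -0.30 under butyrate and -0.41 under the combination. With butyrate Dnmt1, Dnmt3a and Ezh2 were at -0.41, -0.40 and -0.39, beside that median of -0.30. After division by a median-of-ratios factor per library, the combination differences were -0.50 for Uhrf1, -0.39 for Dnmt1 and -0.16 for Tet3. Dnmt1 with butyrate was then at -0.11 (adjusted p = 0.0143, limma). The Tet genes differed by treatment: Tet2 and Tet3 rose with UK5099, Tet1, close to its detection limit, rose with butyrate, and Tet3 fell with the combination, to 63.8% of vehicle. Ezh1 stayed within 3% of the vehicle mean TPM with either single treatment. With voom on fragments it was higher, by 0.14 with UK5099 and 0.28 with butyrate (adjusted p = 0.00406 and 5.26e-07). The differences were moderate, since 0 of 10 members passed both limits of the study's limma test (adjusted p under 0.01 and a log2(TPM + 1) difference beyond 1) in any comparison with vehicle. Over all genes, 1.84% passed both limits under UK5099, 3.54% under butyrate and 6.42% under the combination. With voom on fragments 1 of 10 (Tet1) passed both with butyrate and with the combination and 0 with UK5099, where 10.5%, 14.1% and 5.80% of all genes did.

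The deposited TPM divide fragments by the genomic span of a gene, introns included, so levels are compared between genes only after rescaling to exonic length. The deposited scale also moved as a whole: among the 13345 expressed genes, those averaging 1 TPM or more, the median difference was -0.12 under UK5099, -0.30 under butyrate and -0.41 under the combination. Differences are therefore also given on a centred scale, TPM divided by a median-of-ratios factor per library, where that median was 0.003, -0.03 and -0.03. Depth, recovered from the steps between low TPM values, was between 33251835 and 43498929 fragments per library.

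The maintenance pair was the most abundant of the DNA methylation genes. Uhrf1, at chr17:56610321-56630486 on the plus strand of GRCm39, measured 43.6, 43.3 and 42.5 TPM in vehicle, 28.1, 29.2 and 29.8 with UK5099, 27.2, 27.2 and 28.3 with butyrate, and 20.7, 22.3 and 22.4 with the combination. Each treated group lay below vehicle, the 2 single treatments overlapped each other, and the combination lay below both. The log2(TPM + 1) difference from vehicle was -0.56 ± 0.032 (SE) under UK5099, -0.63 ± 0.032 under butyrate and -0.95 ± 0.032 under the combination, with adjusted p of 8.79e-07, 1.33e-07 and 4.91e-09 in limma. On the centred scale the differences were -0.41, -0.32 and -0.50.

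Dnmt1, at chr9:20818505-20871184 on the minus strand, measured 17, 16.5 and 16.3 TPM in vehicle, 12.2, 12.3 and 12.6 with UK5099, 12.3, 12.2 and 12.4 with butyrate, and 8.41, 9.07 and 9.59 with the combination. Here too the single treatments overlapped each other while the other groups stood apart. The differences were -0.40 ± 0.037, -0.41 ± 0.037 and -0.81 ± 0.037 (adjusted p = 1.8e-05, 7.16e-06 and 3.33e-08, limma). On the centred scale they were -0.26, -0.11 and -0.39, and the butyrate difference no longer passed adjusted p under 0.01. Within a library, Uhrf1 fell further than Dnmt1: Uhrf1 fragments per Dnmt1 fragment were 0.994 ± 0.010 in vehicle, 0.90 ± 0.017 under UK5099, 0.859 ± 0.016 under butyrate and 0.925 ± 0.029 under both (SD, n = 3), with no treated library inside the vehicle range.

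**Figure D1:**
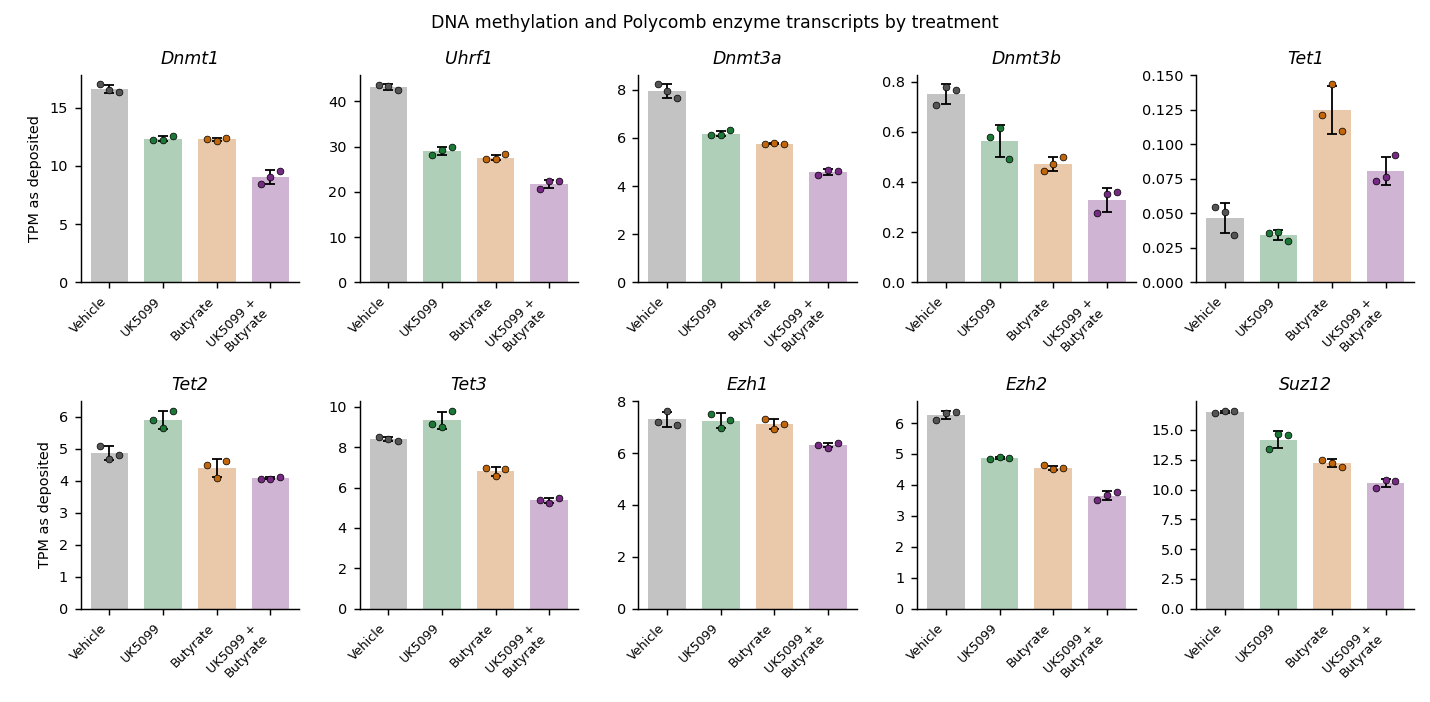
TPM as deposited for each of the 10 genes (one panel each, linear axes from 0) in the 4 groups. Points are the 3 samples, bars the mean and error bars the SD. Dnmt1, Uhrf1, Dnmt3a, Dnmt3b, Ezh2 and Suz12 are lowest in UK5099 + Butyrate, Tet2 and Tet3 are highest with UK5099, and Tet1 is highest with butyrate on an axis that ends at 0.15 TPM.

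The de novo enzymes moved the same way. Dnmt3a, at chr12:3856007-3964443 on the plus strand, measured 8.22, 7.93 and 7.65 TPM in vehicle, 6.10, 6.12 and 6.31 with UK5099, 5.73, 5.77 and 5.74 with butyrate, and 4.44, 4.68 and 4.64 with the combination. None of the 4 groups overlapped. The differences from vehicle were -0.32 ± 0.025, -0.40 ± 0.025 and -0.68 ± 0.025 (adjusted p = 6.1e-06, 4.26e-07 and 7.88e-09, limma), and -0.18, -0.13 and -0.28 on the centred scale. Its ratio to Dnmt1 fragments in the same library was 0.983 ± 0.016 in vehicle, 1.03 ± 0.0037 under UK5099, 0.964 ± 0.012 under butyrate and 1.05 ± 0.048 under both (SD, n = 3).

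Dnmt3b, at chr2:153491370-153529650 on the plus strand, rested on 116 to 245 fragments per library. It measured 0.706, 0.778 and 0.767 TPM in vehicle, 0.578, 0.617 and 0.493 with UK5099, 0.443, 0.473 and 0.498 with butyrate, and 0.275, 0.352 and 0.359 with the combination. Vehicle lay above every treated library, the single treatments overlapped, and the combination lay below both. The mean was 75%, 62.8% and 43.8% of vehicle, the last the lowest share of the 10 genes, though the log2(TPM + 1) difference of -0.40 ± 0.035 (adjusted p = 4.73e-06, limma) understates it because the pseudocount of 1 exceeds the level. On fragments with voom, which needs no pseudocount of that size, the combination difference was -0.74 with a 95% interval from -0.97 to -0.51. With UK5099 the call was fragile: the adjusted p of 0.00416 rose above 0.01 without Vehicle replicate 2 or 3 or UK5099 replicate 1 or 3 (0.0178 at most), and was 0.0527 with voom. The butyrate call was lost on the centred scale (adjusted p = 0.0167) and with voom (0.0102). The antisense gene Dnmt3bos overlaps Dnmt3b but held between 1 and 11 fragments.

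The Tet genes split by treatment. Tet2, at chr3:133169440-133250900 on the minus strand, measured 5.10, 4.69 and 4.81 TPM in vehicle, 5.89, 5.64 and 6.19 with UK5099, 4.48, 4.08 and 4.61 with butyrate, and 4.06, 4.07 and 4.13 with the combination. UK5099 libraries lay above all others, and butyrate and combination libraries overlapped each other below vehicle. The UK5099 difference was 0.24 ± 0.042 (adjusted p = 0.00142, limma), or 0.36 on the centred scale. The combination difference depended on the scale, being -0.21 ± 0.042 (adjusted p = 0.00196) on the deposited scale, 0.17 on the centred scale and 0.21 with voom. With butyrate it was -0.12 ± 0.042 (adjusted p = 0.0349), 0.14 and 0.17 on those scales.

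Tet3, at chr6:83339355-83436066 on the minus strand, was the highest of the Tet genes. It measured 8.51, 8.43 and 8.31 TPM in vehicle, 9.17, 8.99 and 9.81 with UK5099, 6.95, 6.56 and 6.93 with butyrate, and 5.36, 5.24 and 5.50 with the combination, and none of the groups overlapped. The UK5099 difference of 0.13 ± 0.032 (adjusted p = 0.00747, limma) was 0.26 on the centred scale and 0.30 with voom. On the deposited scale it passed adjusted p under 0.01 in only 3 of 12 fits that each left out 1 library (those without UK5099 replicate 2, Butyrate replicate 2 or combination replicate 3), with adjusted p up to 0.0278. The butyrate difference was -0.27 ± 0.032 (adjusted p = 4.67e-05) on the deposited scale but 0.009 and 0.011 on the other scales, and the combination difference was -0.57 ± 0.032, -0.16 and -0.18. The genes B230319C09Rik and 5430434F05Rik overlap Tet3 and held between 1 and 23 fragments, against at least 5032 for Tet3.

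Tet1, at chr10:62640349-62744775 on the minus strand, was barely transcribed, with 38, 34 and 30 fragments in vehicle, 28, 29 and 26 with UK5099, 118, 129 and 100 with butyrate, and 85, 79 and 101 with the combination. In TPM every butyrate library lay above every combination library, and these lay above vehicle and UK5099. In fragments butyrate and the combination overlapped. Mean TPM was 0.047 ± 0.011 in vehicle, 0.034 ± 0.0035 under UK5099, 0.125 ± 0.017 under butyrate and 0.081 ± 0.010 under both (SD, n = 3), 267% of vehicle with butyrate and 173% with the combination. On log2(TPM + 1) this was a difference of 0.10 ± 0.014 with butyrate (adjusted p = 0.000142) and 0.05 ± 0.014 with the combination (adjusted p = 0.0183). With voom on fragments the differences were 1.76 (95% interval 1.35 to 2.18, adjusted p = 6.05e-08) and 1.29 (0.81 to 1.78, adjusted p = 4.53e-05), so at this level the size of the change was set by the pseudocount.

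Among the PRC2 genes, Ezh2 and Suz12 fell with every treatment on the deposited scale, and Ezh1 fell with the combination on that scale but not on the centred one. Ezh2, at chr6:47507073-47572275 on the minus strand, measured 6.11, 6.33 and 6.35 TPM in vehicle, 4.85, 4.90 and 4.88 with UK5099, 4.64, 4.51 and 4.53 with butyrate, and 3.50, 3.68 and 3.79 with the combination, with no overlap between any groups. The differences were -0.31 ± 0.023, -0.39 ± 0.023 and -0.64 ± 0.023 (adjusted p = 4.38e-06, 3.35e-07 and 6.59e-09, limma), and -0.18, -0.12 and -0.26 on the centred scale. Suz12, at chr11:79883932-79924949 on the plus strand, measured 16.4, 16.6 and 16.5 TPM in vehicle, 13.4, 14.6 and 14.5 with UK5099, 12.5, 12.2 and 11.9 with butyrate, and 10.2, 10.8 and 10.7 with the combination, also without overlap. Its differences were -0.21 ± 0.035, -0.41 ± 0.035 and -0.60 ± 0.035 (adjusted p = 0.00108, 5.39e-06 and 2.17e-07), but only the combination's passed on the centred scale, where they were -0.07, -0.11 and -0.17.

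Ezh1, at chr11:101081941-101117289 on the minus strand, measured 7.18, 7.63 and 7.08 TPM in vehicle, 7.51, 6.95 and 7.28 with UK5099, 7.31, 6.91 and 7.13 with butyrate, and 6.30, 6.21 and 6.37 with the combination. Vehicle and the single treatments overlapped, with differences of -0.009 (95% interval -0.08 to 0.06) and -0.03 (-0.10 to 0.04), while the combination lay below them at -0.19 ± 0.032 (adjusted p = 0.00065, limma). That direction reversed with the scale: the combination difference was 0.22 on the centred scale and 0.25 with voom, and the butyrate difference 0.24 and 0.28. The ratio of Ezh2 to Ezh1 fragments within a library does not depend on the scale. It was 1.58 ± 0.064 in vehicle, 1.24 ± 0.056 under UK5099, 1.18 ± 0.020 under butyrate and 1.07 ± 0.041 under both (SD, n = 3). Each treated group lay below vehicle (exact permutation p = 0.1, two-sided, the smallest that 3 against 3 samples allow, and 0.115 after Benjamini-Hochberg adjustment over the 93 ratio comparisons computed).

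**Figure D2:**
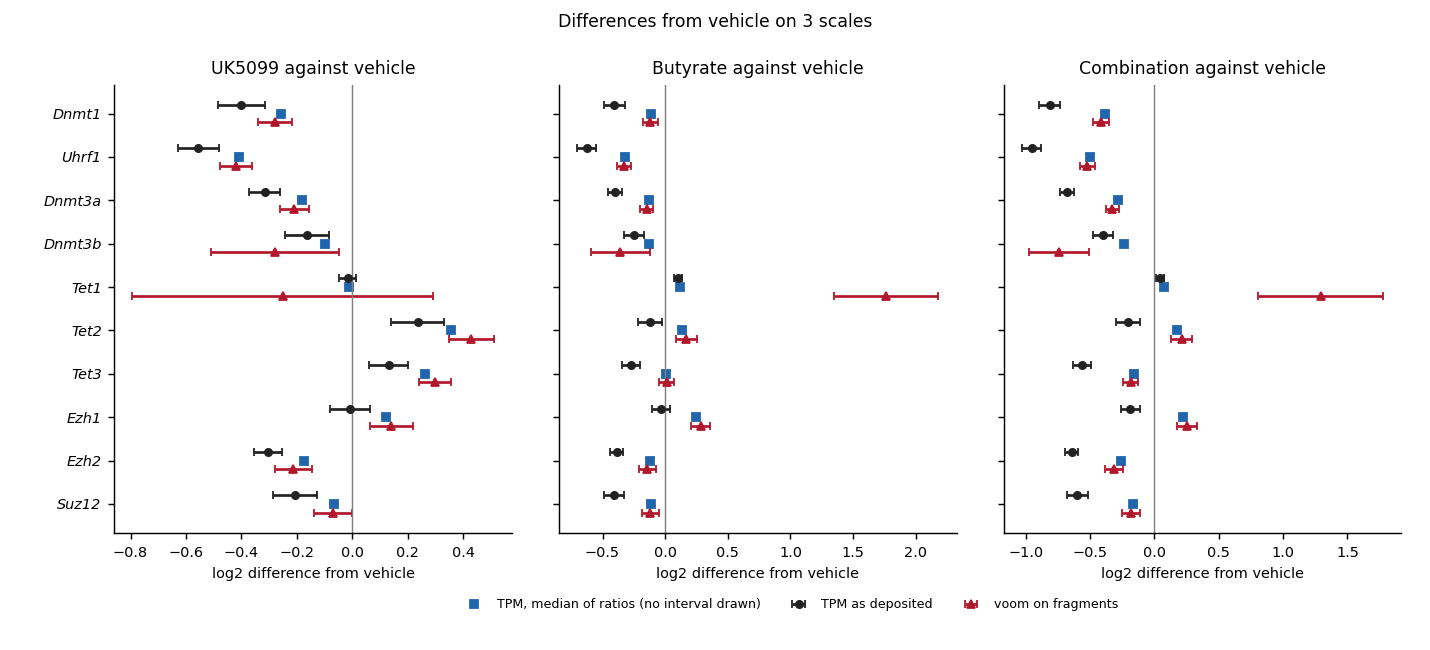
Log2 difference from vehicle (horizontal axes, ranges differ between panels) for each gene and treatment: circles, log2(TPM + 1) as deposited, squares, the centred scale (median of ratios), triangles, voom on fragments. Bars are 95% intervals, not drawn for the squares. Dnmt1, Uhrf1, Dnmt3a and Ezh2 lie left of 0 on all 3 scales in all panels, whereas Ezh1 and Tet2 move from the left to the right of 0 in the combination panel.

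Per exonic length, the order of the 10 genes in vehicle was Uhrf1 (115 TPM ± 0.990, SD, n = 3), Suz12 (77.1 ± 0.786), Dnmt1 (66.8 ± 1.10), Ezh2 (34.5 ± 0.874), Dnmt3a (29.1 ± 0.901), Tet3 (27.5 ± 0.192), Ezh1 (19.5 ± 0.750), Tet2 (13.2 ± 0.542), Dnmt3b (3.17 ± 0.174) and Tet1 (0.178 ± 0.040). All neighbours in that order differed by more than their SDs. In the combination Uhrf1 (63.4 ± 3.03) and Suz12 (53.9 ± 2.10) still led, Ezh2 was at 22.0 ± 0.960 and Tet3 at 19.1 ± 0.446, and Dnmt3a (18.4 ± 0.602) could not be told from Ezh1 (18.4 ± 0.208).

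Counted over the 10 genes at adjusted p under 0.01 alone, UK5099 raised 2 (Tet2 and Tet3) and lowered 6, butyrate raised 1 (Tet1) and lowered 7, and the combination raised 0 and lowered 9. Over all genes, UK5099 raised 8.24% and lowered 24.7%, butyrate raised 9.70% and lowered 35.9%, and the combination raised 10.1% and lowered 40.8%. With voom on fragments, the counts were 3 raised and 4 lowered with UK5099, 3 and 5 with butyrate, and 3 and 7 with the combination, where all genes gave 14.9% raised and 15.1% lowered, 20.2% and 21.7%, and 22.1% and 24.3%. The 4 genes lowered in all 3 comparisons by both fits were Dnmt1, Uhrf1, Dnmt3a and Ezh2. The share of all genes that met this joint condition is not given here. Under butyrate on the deposited scale, 37.3%, 37.5% and 39.7% of expressed genes had lower differences than Dnmt1, Dnmt3a and Ezh2, and 16.5% than Uhrf1. The median difference of the 10 genes was -0.19, -0.33 and -0.58 on the deposited scale, beside -0.12, -0.30 and -0.41 for all expressed genes.

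The combination was next compared with each single treatment. Adding butyrate to UK5099 lowered 9 of 10 genes and raised Tet1 (adjusted p under 0.01), when 35.3% of all genes fell and 7.62% rose. The largest of these differences was in Tet3, at -0.70 ± 0.032 (adjusted p = 8.25e-08), and it was -0.42 on the centred scale. On that scale adding butyrate lowered 5 genes, beside 18.7% of all genes, and with voom 7, beside 20.1%, and Tet1 rose in both. Adding UK5099 to butyrate lowered 8 genes and raised 0, when 22.0% of all genes fell and 5.52% rose. Tet1 (-0.06, adjusted p = 0.0104) and Tet2 (-0.08, adjusted p = 0.173) did not pass. On the centred scale and with voom it lowered 5 genes, beside 9.17% and 10.9% of all genes. Butyrate against UK5099 left Dnmt1 (-0.007, 95% interval -0.09 to 0.08), Uhrf1 (-0.07), Dnmt3a, Dnmt3b, Ezh1 and Ezh2 short of the limit, with Tet1 higher and Tet2, Tet3 and Suz12 lower under butyrate. In that comparison 9.97% of all genes were higher and 27.5% lower. It changed with the scale: Dnmt1 was higher under butyrate on the centred scale (0.147, adjusted p = 0.00367) and with voom (0.158, adjusted p = 8.74e-05). With voom Uhrf1 (0.091, adjusted p = 0.00973) and Ezh1 (0.142, adjusted p = 0.00297) were also higher and Suz12 did not pass (adjusted p = 0.244), so that 4 genes were higher and 2 lower, beside 17.1% and 19.4% of all genes. Both limits were passed by 0 of 10 members in these 3 comparisons and by 1.97%, 0.908% and 1.86% of all genes.

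The interaction term measured the gap between the combination and the summed single effects on log2(TPM + 1). For 7 of 10 members it did not pass the limit. Dnmt1 stood at 54.4% of vehicle in the combination, where the product of its single-treatment folds was 54.9%, and Ezh2 at 58.4% against 56.7%, Dnmt3a at 57.8% against 56.4% and Suz12 at 64.0% against 63.6%. The interaction of Dnmt1 was -0.007 with a 95% interval from -0.13 to 0.11. Uhrf1 fell less than the product, to 50.5% against 43.0% (interaction 0.23 ± 0.046, adjusted p = 0.00642, limma). Tet2 and Tet3 fell further: Tet2 was at 83.9% where the product was 110% (-0.32 ± 0.060, adjusted p = 0.00455) and Tet3 at 63.8% where it was 89.7% (-0.43 ± 0.045, adjusted p = 0.000142). The interactions of Uhrf1, Tet2 and Tet3 were 0.22, -0.32 and -0.43 on the centred scale, close to the deposited scale. Those of Uhrf1 and Tet2 each passed in 3 of 12 fits that left out 1 library, with adjusted p up to 0.019 and 0.0142. For Uhrf1 these were the fits without UK5099 replicate 3, Butyrate replicate 3 or combination replicate 1, and for Tet2 those without Vehicle replicate 1, UK5099 replicate 2 or Butyrate replicate 2. The Uhrf1 interaction also missed the limit under 3 of 12 other settings (adjusted p up to 0.0212), namely pseudocounts of 0.1 and 0.01 and exonic length. Over all genes, 7.01% had a positive and 6.38% a negative interaction at adjusted p under 0.01, and 1.01% also passed the limit of 1.

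**Figure D3:**
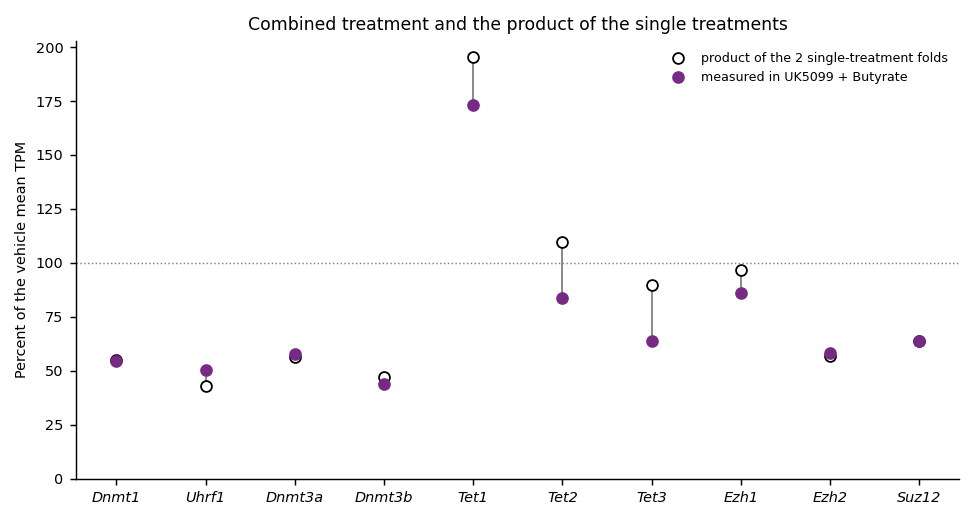
Mean TPM in UK5099 + Butyrate as a percent of the vehicle mean (filled circles) beside the product of the single-treatment folds (open circles), for each gene. Dnmt1, Dnmt3a, Ezh2 and Suz12 lie on or near their product, Uhrf1 lies above it and Tet2 and Tet3 below, while the mean for Tet1 rests on 79 to 101 fragments per library.

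Genes of the cell cycle fell in the same libraries. Of 24 S phase genes, such as the Mcm replicative helicase subunits and Tyms, which makes thymidylate, 22 fell under UK5099, 22 under butyrate and 24 under the combination, with median differences of -0.42, -0.49 and -0.81. Of 20 mitosis genes, 19, 20 and 20 fell, with medians of -0.39, -0.45 and -0.83. Among all genes 24.7%, 35.9% and 40.8% fell, and expressed genes had medians of -0.12, -0.30 and -0.41. With voom 19, 16 and 20 S phase genes fell and 1, 1 and 0 rose, with medians of -0.38, -0.26 and -0.46. In that fit 19, 13 and 19 mitosis genes fell, beside 15.1%, 21.7% and 24.3% of all genes. Tyms was the lowest S phase gene with UK5099 (-0.82) and with butyrate (-0.74), Mcm2, a helicase subunit, with the combination (-1.19), and Rrm2, a subunit of ribonucleotide reductase, rose with UK5099 (0.15). Plk1, a mitotic kinase, was the lowest mitosis gene with UK5099 (-0.58) and with the combination (-1.17), and Bub1, a spindle checkpoint kinase, with butyrate (-0.71). In bulk samples, fewer cells of a type and less RNA per cell cannot be told apart.

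The ratio of each member to the geometric mean of the S phase genes in the same library puts both on one scale. For Dnmt1 it was 106% ± 1.73 of the vehicle mean under UK5099, 106% ± 2.25 under butyrate and 101.7% ± 2.95 under the combination (SD, n = 3), and the combination overlapped vehicle. Uhrf1 stood at 96.1% ± 0.947, 91.4% ± 1.78 and 94.6% ± 1.45, below vehicle in all 3 groups. Ezh2 stood at 111% ± 1.99, 104% ± 3.37 and 109% ± 0.264, and Dnmt3a at 111% ± 1.89, 104% ± 1.62 and 108% ± 2.13, both overlapping vehicle with butyrate. These 4 genes thus stayed within 12% of the S phase genes in every group. Suz12 was at 123% ± 3.61, 106% ± 4.46 and 120% ± 2.09.

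The other members departed further. Relative to S phase genes Ezh1 rose to 142% ± 8.17, 140% ± 6.15 and 162% ± 5.85 of vehicle, Tet2 to 173% ± 8.23, 129% ± 8.80 and 157% ± 4.73, and Tet3 to 158% ± 6.51, 116% ± 5.01 and 120% ± 4.29. Tet1 was at 105% ± 12.2, 382% ± 52.3 and 324% ± 30.3. For Ezh1, Tet2, Tet3 and Suz12 each treated group lay above vehicle (exact permutation p = 0.1, two-sided, again the smallest possible). The share of all genes that lay above vehicle on this ratio is not given here, so this separation is not read as particular to these members. Dnmt3b, like Uhrf1, fell further than the S phase genes in the combination, at 81.9% ± 9.06, with 71.4%, 87.5% and 86.7% in the 3 libraries and none inside the vehicle range. The part of cell cycle activity in these differences was not tested.

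**Figure D4:**
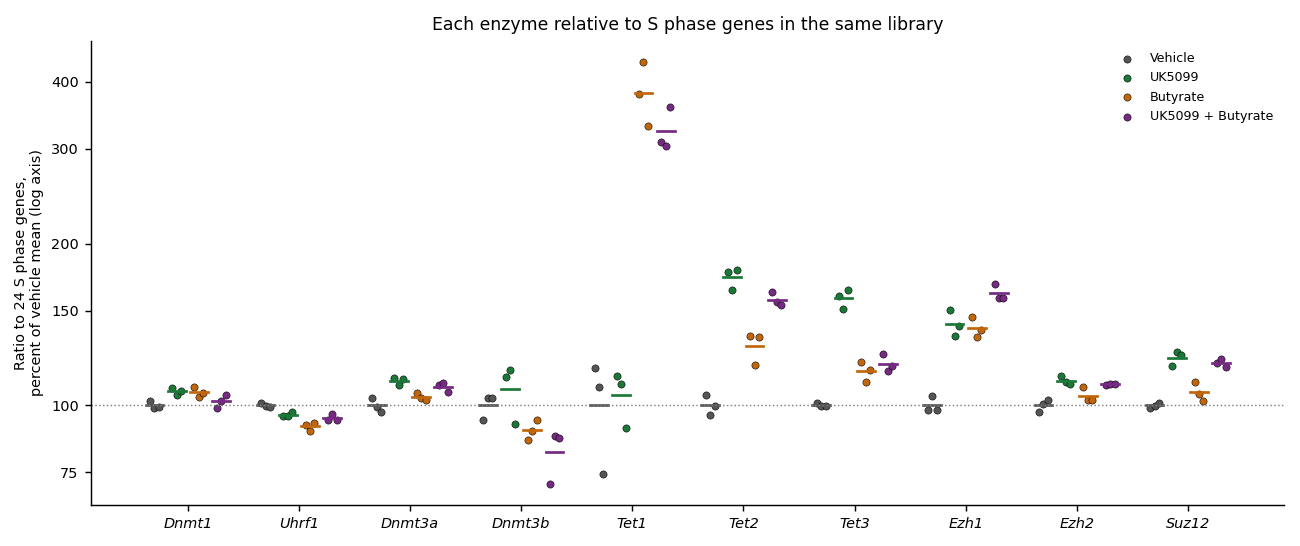
Fragments of each gene divided by the geometric mean of 24 S phase genes in the same library, as a percent of the vehicle mean (log axis). Points are libraries, short lines group means, and the dotted line marks 100%. Dnmt1, Uhrf1, Dnmt3a and Ezh2 stay near 100% in all groups, Ezh1, Suz12, Tet2 and Tet3 lie above it in every treated group, and Tet1 lies above 300% in both groups with butyrate. The S phase genes fell in every treated group, so a gene that did not change also lies above 100%.

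The promoters of some of these genes carry an octamer of the type bound by E2F factors, which drive S phase transcription. The letters TTTCCCGC, TTTCGCGC, TTTGCCGC and TTTGGCGC were searched on both strands in RefSeq promoters of GRCm38.p6, from 250 bases before to 50 bases after each start. All 10 genes had a promoter there, and 4 held a match: Uhrf1, Dnmt1, Suz12 and Ezh2. Of 27025 genes 2.60% held one, as did 5.06% of the 3837 promoters with at least 30 CG, and 7 of the 19 S phase genes with a promoter in the table. Of 15 mitosis genes, which fell in the same libraries, 1 held a match. In the lists of related genes below, 2 of 11 DNA methylation partners and 1 of 9 other PRC2 subunits held one, and no gene of the other lists searched. Windows around the matches show where the octamer (capitals) lies. Counting the first base before the start as -1, the match begins at base -185 in Uhrf1 (chr17:56304102-56304161, plus strand), at -219 in Dnmt1 (chr9:20952809-20952868, minus strand) and in Suz12 (chr11:79992861-79992920, plus strand), and at base 4 of the transcript in Ezh2 (chr6:47595009-47595038, minus strand). Dnmt1 holds another match, at base 34 of the transcript.
Uhrf1: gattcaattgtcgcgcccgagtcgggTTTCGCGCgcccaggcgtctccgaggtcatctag
Dnmt1: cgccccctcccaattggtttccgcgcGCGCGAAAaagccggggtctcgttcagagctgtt
Suz12: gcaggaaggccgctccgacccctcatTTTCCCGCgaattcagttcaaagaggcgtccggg
Ezh2: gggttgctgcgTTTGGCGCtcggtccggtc
The octamer in Dnmt1 is on the strand opposite to the gene. Dnmt3a, which fell with these genes, held no such octamer in any of its 3 listed promoters, and neither did Dnmt3b, the Tet genes or Ezh1. A match is a description of letters, and binding was not measured here.

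The lists of related genes are given first on the deposited scale, where 24.7%, 35.9% and 40.8% of all genes fell and 8.24%, 9.70% and 10.1% rose with UK5099, butyrate and both, and then with voom, where falls and rises were nearly balanced over all genes. Of 11 partners of the DNA methylation enzymes, 10 fell with UK5099 and 0 rose, 6 fell and 3 rose with butyrate, and 9 fell and 2 rose with the combination, with medians of -0.21, -0.34 and -0.56. With voom 6 fell and 0 rose with UK5099, 5 fell and 5 rose with butyrate, and 6 fell and 4 rose with both. Hells, a remodeller needed for methylation of repeats, was lowest with UK5099 (-0.57, adjusted p = 6.22e-06) and with the combination (-0.91, adjusted p = 6.2e-08), from 7.92 TPM in vehicle to 5.01 and 3.76. Kdm1a, a histone demethylase that acts on Dnmt1, was lowest with butyrate (-0.73, adjusted p = 1.47e-08), from 12.9 to 7.38 TPM. Mat2a, which makes the methyl donor S-adenosylmethionine, was at -0.18 with UK5099 on the deposited scale but at -0.03 with voom. It rose with the combination (0.23, adjusted p = 2.6e-05, limma), from 129 to 152 TPM, and was at 0.70 there with voom. Cdca7l rose with butyrate (0.24, adjusted p = 1.95e-06).

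Of 8 methyl-CpG readers, 5 fell and 2 rose with UK5099, 6 fell and 0 rose with butyrate, and 8 fell with the combination (medians -0.18, -0.31 and -0.55). With voom the counts were 1 lower and 3 higher, 4 lower and 3 higher, and 4 lower and 2 higher. Zbtb38 was lowest in all 3 comparisons (-0.68, -0.79 and -0.97), from 2.91 TPM in vehicle to 1.44, 1.27 and 0.999. Zbtb4 rose with UK5099 (0.24), and its difference with butyrate was -0.11 on the deposited scale and 0.20 with voom. Mbd2 was at -0.20 with the combination on the deposited scale and 0.25 with voom.

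The genes that act beside or after the Tet enzymes were mixed. Of 11, 7 fell and 1 rose with UK5099, 6 fell and 3 rose with butyrate, and 7 fell and 1 rose with the combination (medians -0.30, -0.11 and -0.43). With voom 7 were lower and 2 higher with UK5099, but 3 lower and 6 higher with butyrate, and 5 lower and 4 higher with both (medians -0.25, 0.15 and 0.009). Gadd45b, a stress gene linked to demethylation, fell from 58.6 TPM to 31.9 with UK5099 (-0.86, adjusted p = 1.46e-07) and to 22.1 with the combination (-1.37, adjusted p = 1.35e-09). Its relative Gadd45a was lowest with butyrate (-0.80), whereas Gadd45g rose with butyrate (0.55, adjusted p = 0.00139). Ogt, a glycosyltransferase that binds Tet proteins, rose with UK5099 (0.10, adjusted p = 0.00673). Idh1, which makes 2-oxoglutarate, was at -0.43 with the combination on the deposited scale and 0.02 with voom.

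Of 9 other PRC2 subunits found, 4 fell and 2 rose with UK5099, 7 fell and 1 rose with butyrate, and 8 fell and 1 rose with the combination (medians -0.19, -0.50 and -0.63). With voom 2 were lower and 3 higher with UK5099, 6 lower and 1 higher with butyrate, and 6 lower and 2 higher with both (medians -0.07, -0.20 and -0.27). Rbbp7, a histone-binding subunit, was lowest with UK5099 (-0.34) and with the combination (-0.92, adjusted p = 4.41e-10), from 65.5 TPM in vehicle to 51.7 and 34.3, and Phf1 with butyrate (-0.72). Jarid2, which helps PRC2 find its targets, rose in all 3 comparisons, by 0.21, 0.17 and 0.10 (adjusted p = 5.28e-07, 8.27e-07 and 5.16e-05), from 0.979 TPM in vehicle to 1.3, 1.23 and 1.11.

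Polycomb repressive complex 1 (PRC1) binds the mark that PRC2 makes. Of its 21 genes, 11 fell and 0 rose with UK5099, 13 fell and 2 rose with butyrate, and 16 fell and 1 rose with the combination (medians -0.15, -0.34 and -0.37). With voom 7 were lower and 2 higher with UK5099, 10 lower and 8 higher with butyrate, and 9 lower and 4 higher with both (medians -0.03, -0.06 and -0.13). Cbx2, a subunit that reads the mark, fell from 6.96 TPM in vehicle to 3.87 with UK5099 (-0.71, adjusted p = 7.01e-07) and 3.00 with butyrate (-0.99, adjusted p = 2.72e-08). Cbx6, another such reader, fell from 165 to 73.0 TPM with the combination (-1.17, adjusted p = 4.62e-11). Scmh1 showed the smallest fall that passed with UK5099 (-0.15).

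Of 8 genes that oppose Polycomb, including the lysine 27 demethylases Kdm6a and Kdm6b, 3 fell under UK5099, 7 under butyrate and 8 under the combination, and 0 rose (medians -0.08, -0.51 and -0.73). With voom 1 was lower and 2 higher with UK5099 (median 0.04), and 6 were lower and 0 higher with butyrate and with both. Asxl1, a partner of the deubiquitinase Bap1, was lowest with butyrate (-0.73, adjusted p = 1.73e-07) and with the combination (-0.94, adjusted p = 1.88e-08), from 9.36 TPM in vehicle to 5.24 and 4.39. Bap1 was lowest with UK5099 (-0.27, adjusted p = 6.17e-05). Kdm6a was at -0.23 with butyrate and Kmt2c, a lysine 4 methyltransferase, at -0.31 with the combination, but with voom they were at -0.03 and -0.04.

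**Figure D5:**
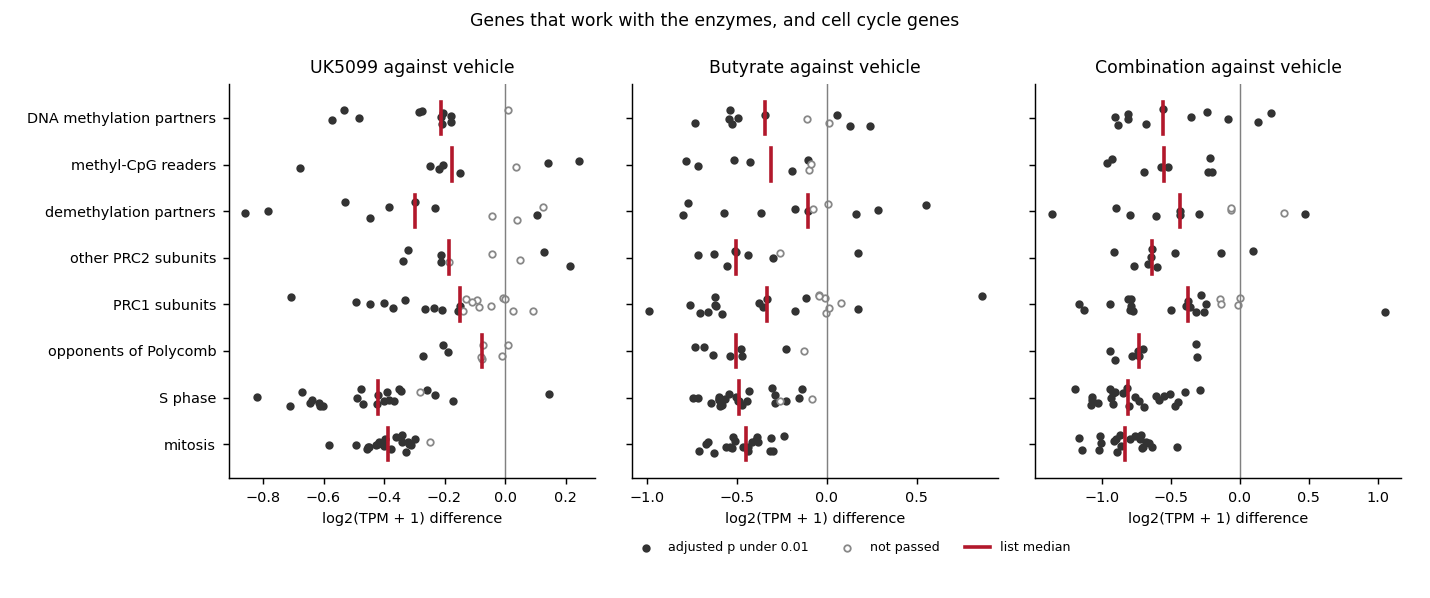
Log2(TPM + 1) difference from vehicle for each gene (points, axis ranges differ between panels) of the lists on the vertical axis. Filled points passed adjusted p under 0.01, open points did not, and red bars are list medians. The S phase and mitosis lists lie left of 0 with 1 exception, Rrm2 with UK5099.

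Germline genes that DNA methylation keeps silent gave little to read: 3 of 15 were in the table (Ddx4, Sycp3 and Zcwpw1), their group means were at most 0.298 TPM, and 0 of 3 passed in any comparison on the deposited scale, while with voom 1 (Zcwpw1) was higher with butyrate.

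Lineage markers moved in the same libraries. The summed TPM of 5 basal markers (Krt5, Krt14, Trp63, Itga6 and Krt15) was between 6531 and 6657 in vehicle, 13496 and 13878 with UK5099, 6920 and 7158 with butyrate, and 9983 and 10391 with the combination. With butyrate 2 of them were higher (Krt5 and Trp63) and 3 lower at adjusted p under 0.01, beside 9.70% and 35.9% of all genes. With voom 3 were higher and 0 lower. In the combination 4 were higher and Krt15 was lower in both fits. The sum of 5 luminal markers (Krt8, Krt18, Krt19, Prom1 and Cd24a) was between 4616 and 4801 in vehicle, 2737 and 2889 with UK5099, 2691 and 2725 with butyrate, and 1694 and 1914 with the combination. All 10 lineage markers were detected in every library. Fibroblast markers, 5 of 5 found, summed to between 2.15 and 2.73 TPM in vehicle and UK5099, 10.4 and 10.8 with butyrate, and 2.19 and 2.58 with the combination. The butyrate sum was mostly Dcn (9.51 TPM), while Col1a1 was at 0.713. Endothelial markers, 4 of 4 found, summed to at most 0.043 TPM and neuroendocrine markers, 3 of 4, to at most 1.04. Of the leukocyte markers 2 of 5 were listed: Ptprc was at or below 0.0016 TPM in group means, and Cd68 rose from 24.2 TPM to 67.4 with butyrate and 91.7 with the combination. The part of these marker changes in the results above was not tested.

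The patterns of 3 members over the 12 samples were matched to those of the other expressed genes. Those with the highest Pearson r of log2(TPM + 1) were Zbtb10 (0.998), 2900026A02Rik (0.997) and Nf1 (0.997) for Uhrf1, Srsf1 (0.998), Ddx19b (0.998) and Anapc5 (0.997) for Ezh2, and Nhlrc2 (0.998), Dlg5 (0.998) and Virma (0.997) for Dnmt3a. The points share their libraries and the shift of the whole scale.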

How the data were processed

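The deposited table held TPM for 12 samples, which the authors scaled to 1000000 per sample. The submitters' processing notes name STAR 2.7.9a, Partek and GRCm39, while the study's methods name fastp, STAR, GRCm38 and RSEM for these organoids. Listed lengths equal the genomic span in 100% of genes. Groups came from the sample labels. The study's model was used: limma 3.58.1 (R 4.3.3) on log2(TPM + 1) with UK5099, butyrate and their interaction, all 12 samples and 24674 genes, and Benjamini-Hochberg adjustment over all genes. The pseudocount of 1 was chosen here. Fragments were recovered from TPM steps with Python 3.11.15 (58.9% to 61.3% of values were whole within 0.02 of a fragment, the rest being split between genes) and fitted with voom. Exonic lengths came from GENCODE for 96.9% of genes. Fits were tested on simulated data. Replicates of a group differed by more than counting noise. The members, lists and alternatives were chosen with earlier results of these data known. Besides the 10 members, the genes with the highest and lowest difference of each list were named per comparison with vehicle, provided they averaged 1 TPM or more in some group and had adjusted p under 0.01, as were the 3 genes most like Uhrf1, Ezh2 and Dnmt3a. Other genes are given as examples. Figures were drawn with matplotlib 3.10.9. Some results for single genes are not reported here.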

Additional observations from a re-analysis of the deposited data

Results flagged for a closer look

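The effect of UK5099 with butyrate present differed from its effect without butyrate in 3 of the 10 genes, by the interaction term of the limma fit. Among all genes in the table, that term passed adjusted p under 0.01 upward in 7.01% and downward in 6.38%. For Uhrf1 the interaction was 0.23 (adjusted p = 0.00642), for Tet2 -0.32 (adjusted p = 0.00455) and for Tet3 -0.43 (adjusted p = 0.000142). With voom on fragments the same terms were 0.23 (adjusted p = 0.000124), -0.39 (adjusted p = 6.96e-06) and -0.49 (adjusted p = 1.02e-09). In the voom fit, 6.97% of all genes passed upward and 8.95% downward. The Uhrf1 term missed adjusted p under 0.01 with pseudocounts of 0.1 and 0.01 and with exonic length (0.0212 at most), and those of Uhrf1 and Tet2 in 9 of 12 fits that left out 1 library. Dixon's test for an outlying sample was not applied to groups of 3.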

How the results depend on the processing

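The numbers of members past both limits were recomputed under every alternative. They stayed at 0 in 176 cases and moved in 12. The 12 included 1 with UK5099, 1 with butyrate, 6 with the combination and 1 for the combination against UK5099 when the limit on the difference was 0.5. No share of all genes is given for that limit, and the median difference of all expressed genes was -0.41 under the combination. The others were 1 (Tet1) with butyrate, with the combination, for the combination against UK5099 and for butyrate against UK5099. They arose both with a pseudocount of 0.01 and with voom, where 6.78% to 16.7% and 7.21% to 14.1% of all genes passed. With the replicate number as a term (replicate block) 0 members were called in each of the 7 comparisons, and no member crossed adjusted p under 0.01 in the 4 (each treatment against vehicle, and the interaction) for which single genes were followed, while 6 rather than 8 genes were lower in the combination than in butyrate. Same-numbered samples did not deviate together, with correlations from -0.11 to 0.03 over 18 pairs. In those 4 comparisons the directions that reversed were those of Ezh1, Tet2 and Tet3. Ezh1 was at 0.14 with UK5099 under voom. With butyrate it was at 0.24 after scaling by the median of ratios, 0.27 after quantile normalisation, 0.14 over nuclear protein-coding genes and 0.28 under voom, and with the combination at 0.22, 0.22, 0.007 and 0.25 under the same settings. Tet2 was at 0.17 with butyrate under voom, and with the combination at 0.17 after both scalings and 0.21 under voom. Tet3 with butyrate was at 0.009, 0.027 and 0.011 after median of ratios scaling, quantile normalisation and voom. The cause was not tested. Exonic length was an alternative chosen after seeing the data and called 0 members in every comparison. Depth limits Tet1 (26 to 129 fragments) and Dnmt3b most.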

Other observations

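Dnmt3l, a catalytically inactive partner of the de novo methyltransferases that is best known from germ cells, was singled out after its values were seen. It held 0, 0 and 1 fragments in the vehicle libraries, 2, 2 and 0 with UK5099, 10, 5 and 10 with butyrate, and 26, 18 and 23 with the combination. All combination libraries lay above all butyrate libraries, which lay above vehicle and UK5099. On log2(TPM + 1) the difference from vehicle was 0.06 with butyrate (adjusted p = 0.00467, limma) and 0.13 with the combination (adjusted p = 1.38e-05). The level was low throughout, at a mean of 0.098 TPM in the combination.

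Neil2, a DNA glycosylase, also singled out after its values were seen, rose from 0.341 TPM in vehicle to 0.635 with butyrate and 0.860 with the combination (0.29 and 0.47 on log2(TPM + 1), adjusted p = 0.000328 and 7.01e-06, limma), while Tdg, the glycosylase that removes oxidised methylcytosine, fell from 25.7 TPM to 16.9 and 14.4 (-0.57 and -0.80, adjusted p = 8.8e-08 and 5.9e-09).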
